A study of Mus musculus with 4 samples.

Results

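Open chromatin was examined at 10 Kruppel-like factor genes (Klf2, Klf3, Klf4, Klf5, Klf6, Klf7, Klf9, Klf10, Klf13 and Klf15) in lung tumours of 4 mice, from ATAC-seq, an assay that uses a transposase to cut and tag accessible DNA. The members were chosen by name, and each open region that touched a member's gene body, or came within 10 kb of either end in mm10, was assigned to it. This gave 47 of the 60713 open regions on the 19 autosomes, at 10 of the 15882 autosomal protein-coding genes with a region. Of the 2 tumour groups, 1 came from 2 mice with the genotype KrasLA1/+;Dicer1S2D/+, called Dicer1S2D tumours in what follows, and the other from 2 KrasLA1/+ mice, called KrasLA1 tumours. All 4 mice were of strain C57B6J and aged 55 weeks, and in each group replicate 1 was female and replicate 2 male. KrasLA1 is a latent oncogenic allele, present in both groups, that is switched on by rare spontaneous recombination in any cell of the body. Dicer1S2D carries substitutions made to mimic phosphorylation of Dicer1, the enzyme that cuts microRNA precursors. The labels give 1 mutant copy of each allele and name no Cre or cell type to which either was limited. No tumour without KrasLA1 and no normal lung was among the samples.

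Kruppel-like factors are transcription factors with conserved zinc fingers at the carboxyl end that bind GC-rich and CACCC elements. The rest of each protein recruits different partners. KLF2, KLF4, KLF5, KLF6 and KLF7 act mainly as activators, KLF3 recruits the corepressor CtBP, and KLF9, KLF10 and KLF13 recruit the corepressor Sin3A. In mouse lung, KLF5 is required in epithelium for alveolar maturation, while KLF2 is best known from the endothelium of vessels and from resting T cells.

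A deposited interval has a position and no height, score or read count, so each value below is either a call (a peak is present or absent) or a width in base pairs, and the sequencing depth is unknown. The libraries differed in how much was called. Dicer1S2D replicates 1 and 2 had 50282 and 34767 peaks with median widths of 410 and 468 bp, against 41621 and 44654 peaks with median widths of 453 and 534 bp in KrasLA1 replicates 1 and 2. Of the lists of cell type markers, all 4 epithelial genes had a peak within 2 kb in every library, among them Epcam, the lung factor Nkx2-1 and the surfactant gene Sftpc. Endothelial markers had a peak at 2 of 4 genes in each library, with Cdh5 and Kdr at 0. Of the list of lymphocyte markers, Ptprc, which is not limited to lymphocytes, had a peak within 2 kb in every library, and Cd3e had 0 regions. Myeloid markers had a peak at 2 and 2 of 3 genes in Dicer1S2D replicates 1 and 2, against 2 and 3 in KrasLA1 replicates 1 and 2. Fibroblast and smooth muscle markers had one at 3 and 2 of 3, against 3 and 3. The samples were bulk tissue, so a wider or more frequent peak may reflect more cells of a type or more accessibility per cell, which cannot be told apart.

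RefSeq promoter sequences (GRCm38.p6, the assembly of mm10; 250 bases before to 50 bases after a transcription start site) were at hand for 8 of the 10 genes. In 6 of these 8 genes, the whole 300-base window lay under peaks in all 4 libraries, compared with 18.1% of 31396 autosomal windows. These 6 windows are shown, 5′ to 3′ on the strand of the gene, because they are the members' promoter windows that were open over their full length in every tumour. Capitals mark exact matches, on either strand, to 4 short motifs. The GC box was searched as GGGCGG. The CACCC box was searched by the letters of its name. The core of the cyclic AMP response element was searched as TGACG. The CCAAT box was again searched by the letters of its name.
Klf2, chr8:72318812-72319111, plus strand: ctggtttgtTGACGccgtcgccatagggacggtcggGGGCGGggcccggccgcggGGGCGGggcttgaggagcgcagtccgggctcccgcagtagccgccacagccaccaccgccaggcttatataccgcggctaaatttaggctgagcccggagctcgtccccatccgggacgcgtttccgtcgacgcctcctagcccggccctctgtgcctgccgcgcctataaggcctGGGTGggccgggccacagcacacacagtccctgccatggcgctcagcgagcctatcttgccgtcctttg
Klf6, chr13:5861239-5861538, plus strand: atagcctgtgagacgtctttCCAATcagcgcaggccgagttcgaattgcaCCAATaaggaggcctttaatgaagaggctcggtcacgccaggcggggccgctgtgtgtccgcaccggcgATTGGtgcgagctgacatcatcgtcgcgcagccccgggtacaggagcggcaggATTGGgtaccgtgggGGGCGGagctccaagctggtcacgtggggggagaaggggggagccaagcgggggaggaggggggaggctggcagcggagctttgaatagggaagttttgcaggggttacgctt
Klf3, chr5:64803271-64803570, plus strand: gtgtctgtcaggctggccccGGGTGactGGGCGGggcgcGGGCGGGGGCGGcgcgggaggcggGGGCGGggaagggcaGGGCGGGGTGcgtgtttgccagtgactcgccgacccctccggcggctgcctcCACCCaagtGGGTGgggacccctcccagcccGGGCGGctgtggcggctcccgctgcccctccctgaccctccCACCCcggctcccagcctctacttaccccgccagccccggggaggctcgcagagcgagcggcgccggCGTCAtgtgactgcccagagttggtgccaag
Klf9, chr19:23140976-23141275, plus strand: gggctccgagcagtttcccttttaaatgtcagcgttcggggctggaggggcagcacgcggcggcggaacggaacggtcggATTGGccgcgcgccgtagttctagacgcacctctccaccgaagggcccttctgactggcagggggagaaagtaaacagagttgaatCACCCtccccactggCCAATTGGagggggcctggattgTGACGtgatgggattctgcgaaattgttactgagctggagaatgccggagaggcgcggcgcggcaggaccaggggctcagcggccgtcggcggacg
Klf13, chr7:63938866-63939165, minus strand: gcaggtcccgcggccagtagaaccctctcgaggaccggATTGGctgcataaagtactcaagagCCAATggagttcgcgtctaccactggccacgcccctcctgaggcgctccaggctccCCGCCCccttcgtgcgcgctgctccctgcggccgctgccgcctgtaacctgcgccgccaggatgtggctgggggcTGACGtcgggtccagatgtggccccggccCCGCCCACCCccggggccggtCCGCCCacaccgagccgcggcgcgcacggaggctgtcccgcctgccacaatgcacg
Klf15, chr6:90462326-90462625, plus strand: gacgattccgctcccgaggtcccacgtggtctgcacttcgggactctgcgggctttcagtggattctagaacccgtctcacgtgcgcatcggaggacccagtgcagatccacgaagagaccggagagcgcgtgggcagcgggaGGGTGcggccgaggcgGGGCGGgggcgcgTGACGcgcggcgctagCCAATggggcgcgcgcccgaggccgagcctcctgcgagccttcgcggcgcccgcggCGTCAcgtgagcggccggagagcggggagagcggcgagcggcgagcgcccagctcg

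A GC box was found in 5 of the 6 windows shown and a CACCC box also in 5 of them, which are the kinds of letters that the family itself binds. Klf3 held 6 GC boxes and 5 CACCC boxes, with 1 pair of different motifs overlapping, while Klf9 held 0 GC boxes and 1 CACCC box. Klf3 thus had the most of both among the 6. The CCAAT box was found 4 times in Klf6, 3 times in Klf9 (with 1 pair of matches on opposite strands sharing bases), 2 times in Klf13 and 1 time in Klf15. Klf13 also had 1 overlap, between a GC box and a CACCC box. The cyclic AMP element core was found 2 times in Klf15 and 1 time each in Klf2, Klf3, Klf9 and Klf13. Such letters are frequent in open promoters in general. Of the 5672 autosomal windows wholly covered in all 4 libraries, 73.7% held a GC box, against 36.0% of all 31396 windows. The CACCC box was in 63.2% of the covered and 57.7% of all windows. The cyclic AMP element core was in 37.1% and 21.0%, and the CCAAT box in 40.4% and 37.3%. The median GC content was 70.7% and the median number of CpG dinucleotides 30.5 over the 8 Klf windows, against 64.7% and 26 over the covered windows. A match describes the letters and is not evidence of binding.

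The 2 windows that were not wholly covered belonged to Klf4 and Klf7, where the peak stopped upstream of the start site. Counted in bp from the start site, with negative positions upstream, the Klf4 peak ended at -6 and -19 in Dicer1S2D replicates 1 and 2, and at -131 and -1 in KrasLA1 replicates 1 and 2. The Klf7 peak ended at -214 and -219 in the Dicer1S2D tumours, and at -231 in both KrasLA1 tumours. The edge at Klf7 was thus at nearly the same place in every tumour, while that at Klf4 lay further upstream in KrasLA1 replicate 1 than in the others. The Klf7 region also spanned the upper end of the gene in RefSeq, at position 64122345, which lies upstream of the start site used here.

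**Figure D1:**
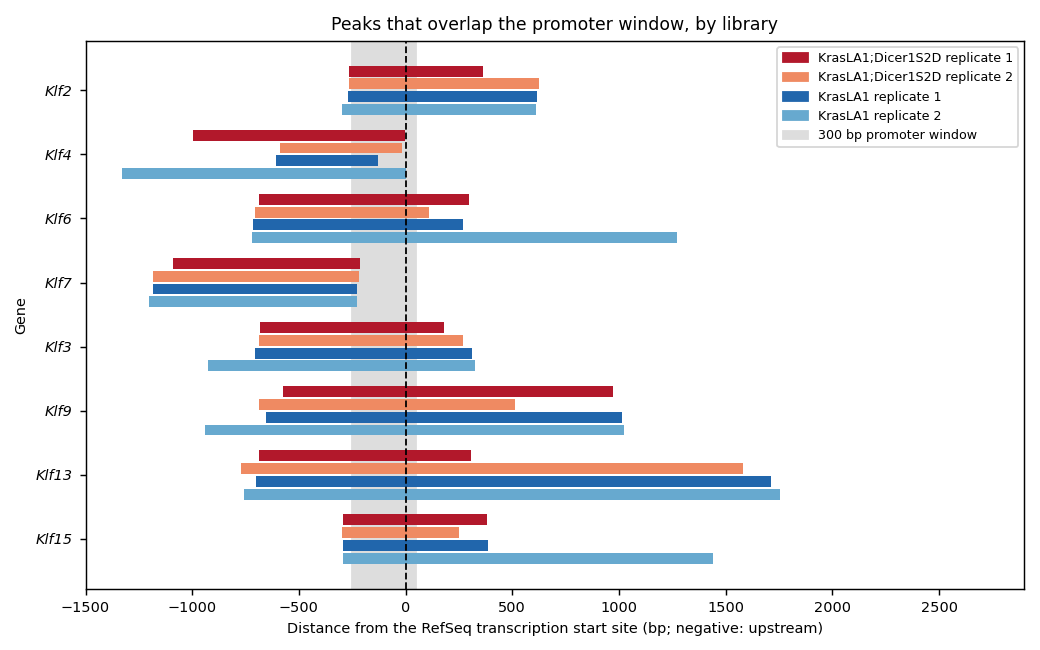
Extent of each peak that overlaps the 300 bp promoter window (grey) of 8 Klf genes, by library, with the distance from the RefSeq start site in bp on the horizontal axis (negative values lie upstream). Peaks of Klf4 and Klf7 stop before the start site in all 4 libraries. The peaks of Klf6 and Klf15 reach 1272 and 1442 bp past the start site in KrasLA1 replicate 2 only. Peaks outside the window are not drawn, and in the other libraries the start-site region of Klf15 was called as 2 peaks.

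Among the activators, Klf2 (a regulator of endothelial quiescence) had 3 regions, of which the 1 at its start site was called in all 4 libraries (chr8:72318763-72319687). It was 630 and 892 bp wide in Dicer1S2D replicates 1 and 2, against 886 and 910 bp in KrasLA1 replicates 1 and 2. The low value was that of Dicer1S2D replicate 1 alone, where the peak reached 363 bp past the start site, against 610 to 625 bp in the other libraries. A region 7695 bp from the gene was missing in Dicer1S2D replicate 2 only, and the third was called in KrasLA1 replicate 2 only.

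Klf4, a factor of epithelial differentiation and of cell reprogramming, had 2 regions. The region upstream of its start site (chr4:55532476-55533803) was 990 and 571 bp wide in Dicer1S2D replicates 1 and 2, against 476 and 1328 bp in KrasLA1 replicates 1 and 2. The KrasLA1 tumours lay on either side of both Dicer1S2D tumours, so the groups overlapped. The second region, within the gene (chr4:55530316-55531103), was 312 and 770 bp wide in the Dicer1S2D tumours, against no peak and 770 bp in KrasLA1 replicates 1 and 2.

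Klf5 was the most even of the loci. Its region at the low-coordinate end of the gene (chr14:99298294-99299527) was 1204 and 1190 bp wide in Dicer1S2D replicates 1 and 2, against 1221 and 1118 bp in KrasLA1 replicates 1 and 2. A second region inside the gene (chr14:99309658-99310452) was 546 and 598 bp wide, against 595 and 795 bp in the same order. Both regions of Klf5 were thus called in all 4 tumours, as at no other of the 10 genes.

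Klf6, an early response gene and growth suppressor, had 5 regions. The start-site region (chr13:5860771-5862761) was 982 and 817 bp wide in Dicer1S2D replicates 1 and 2, against 983 and 1991 bp in KrasLA1 replicates 1 and 2. Of the 47 regions this was among the 4 in the widest 1% of the genome, and its width rested on KrasLA1 replicate 2. The region at the far end of the gene (chr13:5869802-5870817) had 696 bp in 2 peaks and 376 bp in the Dicer1S2D tumours, against 386 and 862 bp in the KrasLA1 tumours. Dicer1S2D replicate 2 had only these 2 regions, while KrasLA1 replicate 2 had all 5.

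Klf7, an activator known from neuronal development, spans 92898 bp and had 8 regions, of which 2 were called in every library. The region at its upstream end (chr1:64121603-64122591) was 877 and 968 bp wide in Dicer1S2D replicates 1 and 2, against 956 and 972 bp in KrasLA1 replicates 1 and 2. A region within the gene (chr1:64106120-64106466), centred 15096 bp downstream of the start site, had no peak in either Dicer1S2D tumour, against 347 and 253 bp in KrasLA1 replicates 1 and 2. It was 1 of 2 Klf regions called in both KrasLA1 tumours and neither Dicer1S2D tumour. A nearby region further into the gene (chr1:64104746-64105147) was called in all 4 tumours and varied little, with 325 and 302 bp against 366 and 333 bp. Of the other 5 regions, 4 were called in 1 library each.

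Klf3, the gene of the CtBP-binding repressor, had 4 regions and shared its window with the predicted gene Gm38457. Its start-site region (chr5:64802593-64803844) was 858 and 953 bp wide in Dicer1S2D replicates 1 and 2, against 1020 and 1252 bp in KrasLA1 replicates 1 and 2. The widest region lay inside the gene, centred 8816 bp downstream of the start site (chr5:64811572-64813101), with 1334 and 1411 bp against 1303 and 1530 bp. This internal region was thus wider than the promoter region in each library. Only 2.83% of autosomal regions were as wide or wider. The other 2 regions were missing in KrasLA1 replicate 1, and 1 of them also in Dicer1S2D replicate 2.

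Among the Sin3A-binding factors, Klf9, a target of glucocorticoid and thyroid hormone, had the widest region of the family. It lay 4881 bp outside the gene, upstream (chr19:23133781-23136345), and only 50 of the 60713 autosomal regions, itself included, were as wide or wider. Its peaks covered 1382 bp (as 2 peaks) and 2129 bp in Dicer1S2D replicates 1 and 2, against 2155 and 2565 bp in KrasLA1 replicates 1 and 2. The start-site region (chr19:23140285-23142248) was 1546 and 1201 bp wide in the Dicer1S2D tumours, against 1670 and 1964 bp in the KrasLA1 tumours. At both regions each Dicer1S2D tumour was below each KrasLA1 tumour in these widths. Once each library was centred on its own median, that held only at the start-site region. The second Klf region called in both KrasLA1 tumours and neither Dicer1S2D tumour lay within Klf9 (chr19:23151646-23152018), centred 10606 bp downstream of the start site, with no peak against 211 and 373 bp.

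Klf10, an early gene of the TGF-beta response, had 1 region called in all tumours (chr15:38299028-38300069). It was 809 and 858 bp wide in Dicer1S2D replicates 1 and 2, against 1019 and 1037 bp in KrasLA1 replicates 1 and 2. The groups did not overlap in these widths, but did once each library was centred on its own median. The other 3 regions lay outside the gene and were called in 1 library each.

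Klf13, a factor known for induction of the chemokine gene Ccl5 in T cells, had 9 regions, the most of the family, and 5 of them were called in every library. The gene E030018B13Rik lies in its window. The start-site region (chr7:63937162-63939686) covered 2112 bp (as 2 peaks) and 2350 bp in Dicer1S2D replicates 1 and 2, against 2411 and 2510 bp in KrasLA1 replicates 1 and 2. There were 54 autosomal regions at least as wide, itself included. The other 4 shared regions lay within the gene, between 13628 and 41560 bp downstream of the start site. A further internal region (chr7:63911327-63912486) was absent from Dicer1S2D replicate 1 and 910 bp wide in Dicer1S2D replicate 2, against 419 and 1160 bp in KrasLA1 replicates 1 and 2.

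Klf15, a glucocorticoid-induced regulator of metabolism, had 6 regions, 3 of them in all 4 libraries. Its start-site region (chr6:90462279-90464018) covered 1151 and 1035 bp in Dicer1S2D replicates 1 and 2, against 1252 and 1738 bp in KrasLA1 replicates 1 and 2. This stretch was called as 2 peaks in the first 3 libraries and as 1 in KrasLA1 replicate 2. The gene in RefSeq begins at position 90461043, upstream of the start site used here and outside every region. The region 9837 bp outside the gene (chr6:90450289-90451206) was 888 and 230 bp wide, against 915 and 817 bp, and the 230 bp peak itself lay beyond the 10 kb limit.

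**Figure D2:**
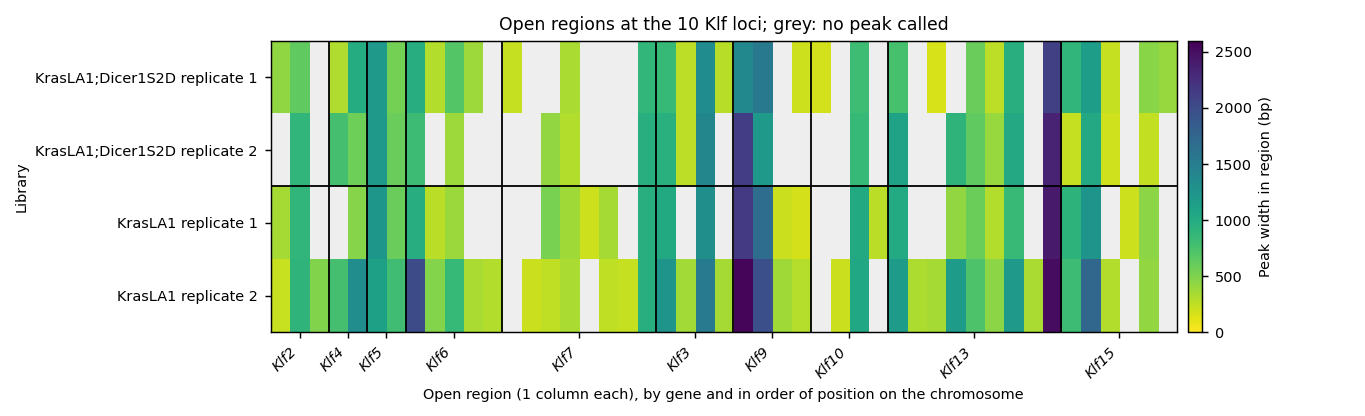
Width of the peaks in each of the 47 open regions at the 10 Klf loci (columns, by gene and position) in each library (rows), in bp by colour, with grey where no peak was called. For the 21 regions called in all 4 rows, the median was 877 and 892 bp in Dicer1S2D replicates 1 and 2. It was 956 and 1118 bp in KrasLA1 replicates 1 and 2. The row of KrasLA1 replicate 2 has the fewest grey cells (41 of 47 regions called), and that of Dicer1S2D replicate 2 has the most (26 of 47 called).

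**Figure D3:**
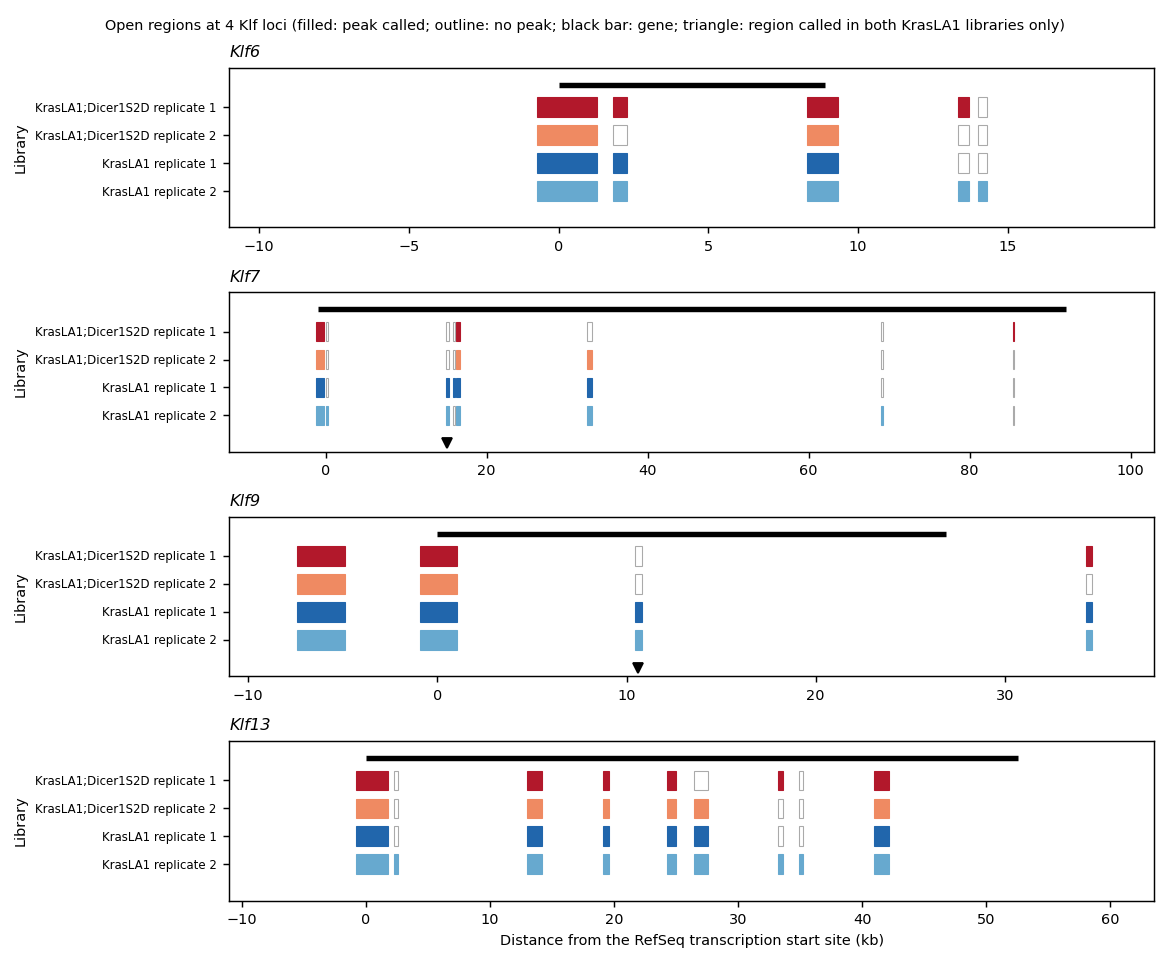
Open regions at Klf6, Klf7, Klf9 and Klf13, with the distance from the RefSeq start site in kb on the horizontal axis and 1 row per library. Filled boxes are regions with a peak, outlines are regions with none, the black bar is the gene, and triangles mark the regions of Klf7 and Klf9 called in both KrasLA1 tumours and neither Dicer1S2D tumour.

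Across the family, 21 of the 47 regions (44.7%) were called in all 4 libraries, 8 in 3, 5 in 2 and 13 (27.7%) in 1. These shares were close to those of all autosomal regions, of which 43.5% were called in all 4 libraries and 27.7% in 1. Each of the 10 genes had a region called in all 4, compared with 87.2% of the 15882 genes. The shared Klf regions, merged over the libraries, had a median width of 1172 bp, against 789.5 bp for all shared autosomal regions. This comparison was not matched for position relative to genes. The shared Klf regions ranged between 402 bp (Klf7) and 2565 bp (Klf9). The 13 regions of 1 library had a median of 232 bp and ranged between 178 and 489 bp, against a median of 253 bp for all such autosomal regions. Of the 21 shared regions, 18 overlapped their gene.

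The libraries contributed unequally. Dicer1S2D replicates 1 and 2 had a call at 33 and 26 of the 47 regions (70.2% and 55.3%), and KrasLA1 replicates 1 and 2 at 31 and 41 (66.0% and 87.2%). The groups overlapped, since KrasLA1 replicate 1 lay between the Dicer1S2D tumours. Of all autosomal regions, the same libraries called 78.8% and 54.9%, and 66.0% and 71.8%. The Dicer1S2D tumour with the most peaks in the genome thus had fewer calls at Klf loci than KrasLA1 replicate 2. Among the 21 shared regions, Dicer1S2D replicates 1 and 2 had the widest peak in 1 and 0, against 3 and 17 in KrasLA1 replicates 1 and 2. Over all 26402 shared autosomal regions the shares were 19.4% and 7.22% in the Dicer1S2D tumours, against 20.7% and 52.7% in the KrasLA1 tumours. KrasLA1 replicate 2 thus had the most calls and most of the widest peaks at the Klf loci. Dicer1S2D replicates 1 and 2 had 5 and 1 Klf regions covered by more than 1 peak, against 2 and 0 in KrasLA1 replicates 1 and 2. Over all autosomal regions called in each library the share with more than 1 peak was 2.82% and 2.38% in the Dicer1S2D tumours, against 1.92% and 0.275% in the KrasLA1 tumours. Their part in the widths was not tested.

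**Figure D4:**
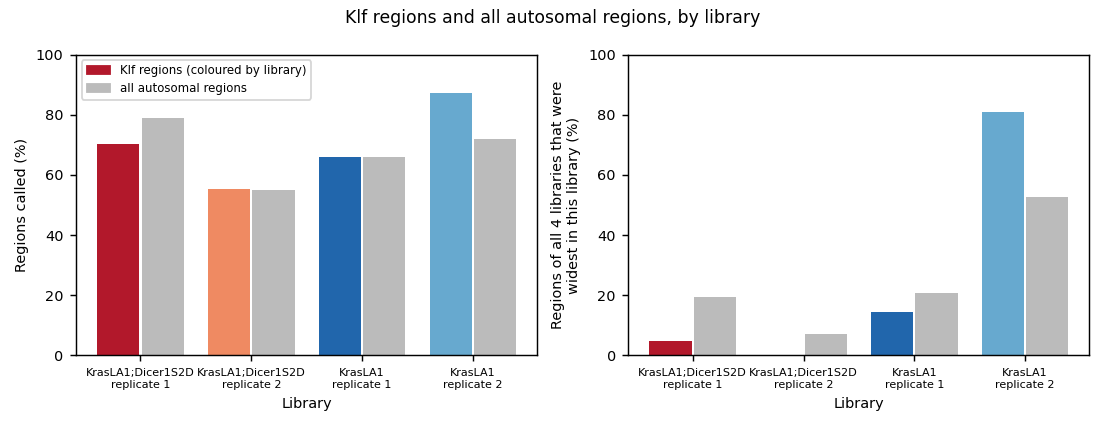
Left, share of regions with a call in each library (%), for the 47 Klf regions (coloured) and all 60713 autosomal regions (grey). Right, share of the regions called in all 4 libraries that were widest in each library (%), where KrasLA1 replicate 2 takes 17 of 21 Klf regions (81.0%) and 52.7% of all.

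The design asks which chromatin differs between tumours with and without Dicer1S2D. At the Klf loci, 0 of 47 regions were called in both Dicer1S2D tumours and neither KrasLA1 tumour, a pattern of 0.596% of all autosomal regions. In the reverse direction there were 2 of 47, the regions in Klf7 and Klf9, a pattern of 1.42% of all autosomal regions. By gene this was 0 of 10 with 1.78% of all genes, and 2 of 10 with 4.87% of all genes. The comparison by gene was not matched for the number of regions. Members had a median of 4 regions, against 3 over all genes, and 8.94% of genes had as many regions as Klf7 or more. Both regions were narrow (347 and 373 bp), and with the widest 75% of peaks, or with equal numbers of the widest peaks, neither was called in both KrasLA1 tumours and no other. With 1 library left out, both patterns became more frequent over the whole genome. Without Dicer1S2D replicate 1, 0 of 44 Klf regions were called in the remaining Dicer1S2D tumour only and 5 in the KrasLA1 tumours only, beside 2.04% and 7.64% of all autosomal regions. Without Dicer1S2D replicate 2 these were 3 and 4 of 47, beside 12.6% and 2.63%. Without KrasLA1 replicate 1 they were 0 and 9 of 44, beside 2.50% and 10.97%. Without KrasLA1 replicate 2 they were 3 and 5 of 42, beside 5.004% and 7.95%. Cell type markers held regions of the same kind. Of 21 epithelial regions, 1 each at Cdh1 and Nkx2-1 were called in both KrasLA1 tumours only. So were 1 of 12 endothelial regions (Tek), 1 of 13 myeloid regions (Spi1) and 2 of 10 fibroblast and smooth muscle regions (Acta2). The share over all autosomal regions was 1.42%. In both Dicer1S2D tumours only, 0 regions of these 4 marker lists were called, beside 0.596% of all. In Dicer1S2D replicates 1 and 2, epithelial markers had 13 and 10 regions called, against 14 and 18 in KrasLA1 replicates 1 and 2. In the same order, endothelial markers had 10 and 8 against 10 and 12, myeloid markers 10 and 8 against 10 and 11, and fibroblast and smooth muscle markers 7 and 4 against 7 and 7. Of all autosomal regions these libraries called 78.8% and 54.9%, against 66.0% and 71.8%. The part of these cell types in the Klf calls was not tested.

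The open length of a locus, the base pairs under peaks in the gene and 10 kb on each side, summarised these regions. It was lower in both Dicer1S2D tumours than in both KrasLA1 tumours at 5 of 10 loci and higher at 0, where 27.7% and 1.98% of all loci did the same. Klf9 had 3130 and 3330 bp in Dicer1S2D replicates 1 and 2, against 4203 and 5188 bp in KrasLA1 replicates 1 and 2. Klf7 had 1434 and 1695 bp, against 2391 and 2246 bp in the same order. Klf10 had 987 and 858 bp, against 1286 and 1241 bp. Klf2 (1065 and 892 bp against 1239 and 1621 bp) and Klf5 (1750 and 1788 bp against 1816 and 1913 bp) were the other loci without overlap. At Klf13, which had the greatest open length in every library, 4836 and 6427 bp stood against 5564 and 8214 bp, and the groups overlapped. They also overlapped at Klf4, Klf6, Klf3 and Klf15. Over all loci the median log2 difference of Dicer1S2D minus KrasLA1 was -0.17 before any scaling, so each library was then centred on its own median. After that 3 of 10 Klf loci (Klf2, Klf9 and Klf10) were lower without overlap, and 0 were higher, against 12.0% and 12.6% of all loci. That count was 1 lower and 0 higher with the widest 75% of peaks, and 1 lower and 1 higher with a window of 25 kb.

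**Figure D5:**
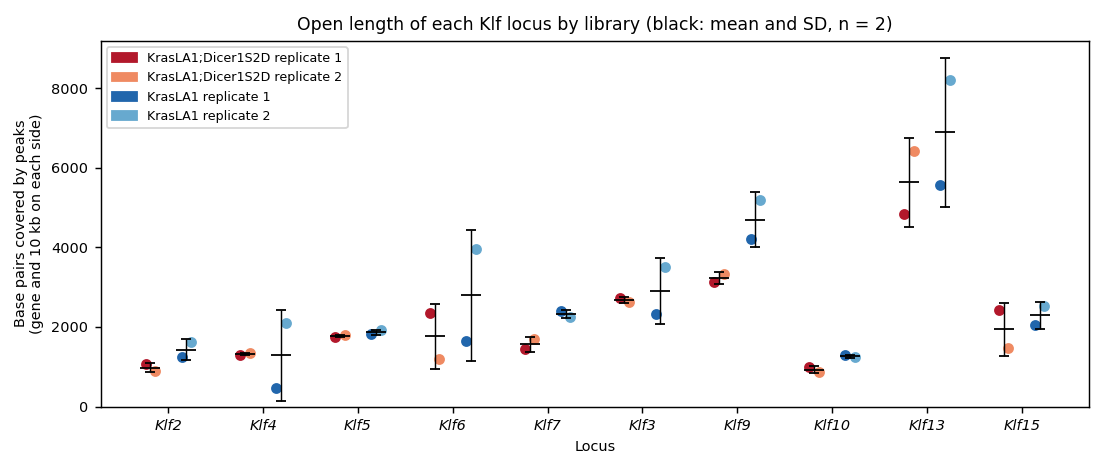
Base pairs covered by peaks in each Klf gene and 10 kb on each side, for each library (points), with the mean and SD of each genotype in black (n = 2 each, Dicer1S2D left of KrasLA1). The points of the genotypes do not overlap at Klf2, Klf5, Klf7, Klf9 and Klf10, and KrasLA1 replicate 2 is far above the rest at Klf6.

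No locus of the family passed the test of open length. In limma, on log2 of the open length plus 100 bp and centred per library, the largest differences of Dicer1S2D minus KrasLA1 were 0.51 ± 0.64 (SE) at Klf4, -0.40 ± 0.47 at Klf6, -0.37 ± 0.28 at Klf7, -0.34 ± 0.23 at Klf9 and -0.32 ± 0.20 at Klf2 (limma, adjusted p = 0.999993 each, n = 2 and 2). The other loci were at -0.24 ± 0.21 (Klf10), 0.10 ± 0.22 (Klf5), -0.10 ± 0.32 (Klf13), -0.09 ± 0.24 (Klf15) and 0.09 ± 0.24 (Klf3) on the same scale. Without centring the signs of Klf5 and Klf3 turned, to -0.072 and -0.087. Leaving out 1 library moved Klf4 to -0.34 and Klf6 to -0.90 where it was KrasLA1 replicate 1, and Klf4 to 1.37 and Klf6 to 0.11 where it was KrasLA1 replicate 2. Klf7 ranged between -0.61 and -0.12, and Klf9 between -0.51 and -0.17, each with its lowest value without Dicer1S2D replicate 2 and its highest without Dicer1S2D replicate 1. The median difference with centring was -0.17 over the 10 loci and 0.01 over all 15882. Without KrasLA1 replicate 2 it was -0.0084 over the 10 loci, with 5 of them below 0, and -0.011 over all loci, with 51.5% below 0. Of all loci 0 passed an adjusted p of 0.05 (0%) and 260 (1.64%) had an unadjusted limma p under it, with 0 Klf loci among them. The same test on the log2 width of shared regions gave differences between -0.77 (the Klf15 region 9837 bp outside the gene) and 0.20 (at Klf5) over the 21 Klf regions. Of these, 13 were below and 8 above 0, with a median of -0.091. Over all shared regions 43.5% were below 0 and the median was 0.040. Without Dicer1S2D replicate 1 the direction turned, with 9 of 23 Klf regions below 0 and a median of 0.083. In that setting 43.0% of all shared regions were below 0, with a median of 0.054. Of 26402 regions, 0 (0%) passed the adjusted p, and 770 (2.92%) had an unadjusted limma p under 0.05, of which 0 were Klf regions. Before centring, both Dicer1S2D tumours had narrower peaks than both KrasLA1 tumours at 8 of the 21 Klf regions, as did 27.2% of all shared regions, and wider ones at 0, against 3.66%. After centring, 3 were narrower without overlap, the start-site regions of Klf6, Klf9 and Klf15 (10.8% of all shared regions), and 1 was wider, the internal region of Klf3 (16.9%). With 2 tumours in each group, the differences at Klf9 and Klf7 were not distinguishable from the spread between tumours, and a miss does not show equal openness.

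Related genes were counted in the same way. Of the other 7 genes of the family, Klf11, Klf12 and Klf16, the erythroid gene Klf1 and the X-linked Klf8 had 18 regions together, with 13 and 12 called in Dicer1S2D replicates 1 and 2, against 10 and 15 in KrasLA1 replicates 1 and 2. Klf14 and Klf17 had 0 regions, and none of the 7 had a region that followed the genotype. Among the 9 Sp genes, whose products share the zinc fingers and bind GC boxes, 25 regions were counted, with 19 and 17 called in the Dicer1S2D tumours, against 17 and 21 in the KrasLA1 tumours. Sp4 had a region within the gene called in both Dicer1S2D tumours only (chr12:118263864-118264186, 301 and 301 bp against no peak). Sp1 had a region 6081 bp outside the gene called in both KrasLA1 tumours only (chr15:102442485-102442756, no peak against 264 and 267 bp).

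The 10 genes of partners and regulators held 67 regions, with 47 and 41 called in the Dicer1S2D tumours, against 51 and 51 in the KrasLA1 tumours. Mef2a, whose product drives Klf2 and Klf4 transcription downstream of the kinase ERK5, had a region of KrasLA1 tumours only (chr7:67243038-67243301, no peak against 234 and 262 bp). So did Ctbp2, the gene of a corepressor bound by KLF3 (chr7:133050703-133051100, no peak against 398 and 223 bp). The KLF2 targets Nos3, Thbd and S1pr1 held 10 regions, with 6 and 7 called against 5 and 8, and 0 that followed the genotype. The 9 early, hormone and TGF-beta response genes held 52, with 44 and 37 called against 41 and 45. Among them the X-linked glucocorticoid target Tsc22d3 had a region of KrasLA1 tumours only (chrX:140600507-140601008, no peak against 253 and 449 bp). Of the 34 autosomal genes of these lists with a region, 1 thus had a region of Dicer1S2D tumours only and 3 had a region of KrasLA1 tumours only, where 1.78% and 4.87% of all autosomal genes did. These shares were not matched for the number of regions per gene either.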

How the data were processed

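The authors deposited 5 tracks of intervals in mm10, per the file headers: peaks of each of 4 libraries and 1 track of merged regions. Per the labels' protocols, 40-50 mg of tumour was snap frozen, and a company made, sequenced and analysed the libraries. BWA 0.7.12, MACS3 3.0.0 and deepTools 3.5.1 are named in the submitters' processing notes. Their settings, the peak threshold and any read shift for the transposase were not given in these sources, so the cutoff behind peak edges and calls is unknown. Library names were matched to samples by the mouse number in the title. All intervals were assigned.

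Peaks overlapping by 1 bp were merged, which gave the authors' 61972 regions. Genes were placed with a RefSeq table for GRCm38.p6, the assembly of mm10, and start sites and strand came from RefSeq promoters. Motifs were exact letters on both strands. Region width and open length were tested with limma 3.58.1 in R 4.3.3, on log2 values centred on each library's median and adjusted after Benjamini and Hochberg over all features, with a pseudocount of 100 bp for open length. Regions called in both tumours of 1 genotype only (gained in Dicer1S2D, lost where in KrasLA1) have no test, since 2 against 2 libraries cannot go below an exact two-sided permutation p of 0.333. The samples of a group came from different mice. Alternatives covered merging, peak filters, windows, scaling, pseudocount, each library left out and a replicate block. The rule for gained and lost regions was run on regions that were given these patterns, which it returns by construction, so that is no test of the calling. The limma fits were tested on simulated data. They recovered changes under an equal spread but none under the features' own spread. That own spread was estimated from 2 tumours in each group and taken as true, so it carries error of estimation. A missed threshold in these libraries says little. Python 3.11.15, numpy 2.4.6, pandas 2.3.3 and matplotlib 3.10.9 were used. The members, lists, tests and the rule for named genes (all members, each of their gained or lost regions, and list genes with such a region, up to 4 per list and direction) were chosen with earlier results of these data known. Some list genes are not reported here.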

Additional observations from a re-analysis of the deposited data

Results flagged for a closer look

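The number of calls differed between the genotypes in opposite directions in the female and the male pair of tumours. At the 47 Klf regions the female Dicer1S2D tumour had 2 more calls than the female KrasLA1 tumour (33 against 31). The male Dicer1S2D tumour had 15 fewer than the male KrasLA1 tumour, a difference of -15 (26 against 41). Over all autosomal regions the same differences were 7772 and -10285. Without centring, the open length over the 10 loci differed by -991 bp in the female and -10900 bp in the male pair. All peaks covered 24.96 Mb in the female Dicer1S2D tumour, against 22.68 Mb in the female KrasLA1 tumour. In the male pair they covered 18.98 Mb against 27.86 Mb, so this total differed in opposite directions. The uncentred open length of a locus was lower in Dicer1S2D in both pairs at Klf2, Klf5, Klf7, Klf9, Klf10 and Klf13. It differed in sign between the pairs at Klf3, Klf4, Klf6 and Klf15. The share of all loci that were lower in both pairs was not counted, so these directions cannot be read as particular to the Klf loci. In the limma fit without centring, 9 of 10 Klf loci and 77.2% of all loci had a difference below 0. Each pair is 1 mouse against 1 mouse, and the difference between the pairs was not tested.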

How the results depend on the processing

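Over all alternatives 0 Klf regions passed the limma test of width and 0 Klf loci that of open length, which says nothing about stability, since 0 of all regions and 0 of all loci passed in any setting. The lowest adjusted p of a Klf locus was 0.492 (limma, without KrasLA1 replicate 2). The number of regions called in both KrasLA1 tumours only was 2 under both other merging rules, the width minimum of 200 bp and windows of 2 and 25 kb. It was 0 with the widest 75% of peaks and 0 with equal numbers of the widest peaks, and 4 to 9 with a library left out. That of both Dicer1S2D tumours only was 0 in each of these settings and 0 to 3 with a library left out. The mean number of Klf regions called was 29.5 ± 4.95 in Dicer1S2D and 36 ± 7.07 in KrasLA1 tumours (SD, n = 2 each). The difference of -6.5 moved by less than the SD of the KrasLA1 tumours, to between -2.5 and -6.5 and to between -1 and -11.5 with a library left out. The sign of open length differences turned at Klf3 (-0.052 with the widest 75% of peaks, -0.065 with equal numbers, -0.087 without centring), Klf5 (-0.072 without centring), Klf7 (0.14 with the widest 75%) and Klf15 (0.049 with a window of 25 kb). With a library left out the ranges were -0.084 to 0.27 at Klf3, -0.34 to 1.37 at Klf4, -0.038 to 0.25 at Klf5, -0.90 to 0.11 at Klf6, -0.43 to 0.23 at Klf13 and -0.31 to 0.13 at Klf15. A replicate block, whose number also stands for sex, gave 0 calls in both tests. Deviations of libraries with the same number correlated at r = 0.12 over regions and 0.21 over loci, and 2 pairs do not show pairing. The depth is unknown, which limits what a missing call can show.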
